A study of Homo sapiens with 8 samples.

Results

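The genes described here are 39 human DNA repair genes relevant to platinum damage, examined in RNA-seq of J82, an established bladder cancer cell line, sorted into SP and NSP cells. They were taken by gene symbol from a list that names 11 genes of nucleotide excision repair, 9 of the Fanconi anaemia pathway, 10 of homologous recombination, 4 checkpoint kinases and 5 genes of other repair steps, and no measured value entered the rule. All 39 were found among the 57820 genes of the deposited count table. J82 cells grown in DMEM with 10% FBS were stained with the DNA dye Hoechst and sorted by FACS, with 7-AAD marking dead cells. SP cells are the fraction that retains little of the dye, and NSP cells are the remainder of the same culture. The labels name no drug for either group, so both were sorted from cells without platinum exposure as far as the labels go. Each group has 4 libraries, numbered 1 to 4. No source says whether the 4 came from separate cultures or sorts, so the p-values measure only the spread between these libraries, and a single cell line was sampled.

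Cisplatin and related drugs bind to purine bases and form adducts within a DNA strand and crosslinks between the strands. Nucleotide excision repair cuts out a stretch of the damaged strand and fills the gap, the Fanconi anaemia pathway unhooks crosslinks at stalled replication forks, and homologous recombination mends the breaks that follow. Checkpoint kinases hold the cell cycle while repair proceeds, and low activity of these pathways is widely known to make tumour cells sensitive to platinum. In the study SP cells are the drug-resistant fraction of the line, and the comparison asks whether genes of these pathways were expressed at other levels in SP than in NSP cells.

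Total counts ran from 1431823 to 1697218 per SP library and from 1489033 to 2073526 per NSP library, and edgeR's filter on low counts left 9309 genes for the test. The paper reports many times more raw reads per sample than these totals, and what became of the other reads was not tested. FOXC1 and ABCB1, the transcription factor and drug transporter on which the study centres, were higher in SP cells with log2 fold changes of 3.33 and 2.96. The 8 markers of an epithelial or carcinoma line were KRT7, KRT8, KRT18, KRT19, EPCAM and CDH1, together with the mesenchymal markers CDH2 and VIM. Of the 8 markers 6 were tested, all with log2 fold changes below 0. The summed CPM of the 8 was 3780 to 5160 in SP and 5200 to 6880 in NSP cells, which do not overlap. A sum over this mixed list does not measure an epithelial or a mesenchymal state. KRT7 was called lower at -1.35, VIM (-0.76) was called lower with the replicate block, with no filter and by DESeq2, and EPCAM and CDH1 had only 3 and 24 counts in the 8 libraries together. The part of these markers in the results below was not tested. Of the leukocyte markers PTPRC and CD3E were at 0, while CD14 was detected with a log2 fold change of 0.96 and was called higher with the replicate block or with no filter, and the endothelial markers summed to at most 1.28 CPM in a library.

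What a count on a gene means in this table depends on the strand that was counted, and that setting is not given in the sources used here. The kit named in the labels keeps the strand of the RNA. As a measure, 595 lncRNAs were taken that share 50% or more of their exon length with a coding gene of the opposite strand, with 100 counts or more in the pair. The lncRNA was the denser of the pair, in counts per kb, in 88.2%. The lncRNA opposite GAPDH, whose 422 bp of exon all lie within exons of GAPDH, had 464412 counts, while GAPDH itself, with 1974 bp of exon outside the shared part, had 13292, or 2.78% of the pair. Most counts of this pair were thus assigned to the lncRNA, which is annotated on the strand opposite to GAPDH. Which strand the counted RNA came from was not tested. Over all genes, 4213 lncRNAs with an exon across the other strand held 29.9% of all counts, and 12939 coding genes without one held 21.8%. If reads of a stranded kit are counted with the opposite setting, each gene receives the reads antisense to it, and the reads of its own mRNA go to a gene annotated across it or are not counted. The setting itself was not tested. The values below may therefore be reads antisense to the repair genes, or reads of their partners on the other strand, and they are given as counts assigned to a gene, not as levels of its mRNA.

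None of the 39 genes was called higher or lower in SP cells in these counts. The test could be made for 20 of them, and the other 19 had too few counts. A gene was called where the fold change exceeded 1.3 and the p of the edgeR quasi-likelihood F-test, BH-adjusted (Benjamini-Hochberg) over all tested genes, was under 0.05. By this rule 1.63% of the tested genes were called higher in SP cells and 2.03% lower. At an unadjusted p under 0.05 the count was also 0 of 20, where 16.4% of all tested genes passed. DESeq2, which gave an adjusted p for 28 of the 39 genes, also called 0 of them, with 3.33% of all genes called, and 0 had an unadjusted p under 0.05. In bulk libraries such as these, fewer cells of a kind and less RNA per cell cannot be told apart.

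The fold changes of the 20 tested genes were small in both directions. Their log2 fold changes (SP against NSP) ran from -0.25 to 0.31, with 9 above and 11 below 0 and a median of -0.01, beside a median of 0.01 over all tested genes. None exceeded a fold change of 1.3, which 29.4% of all tested genes did. The 95% interval lay within a 2-fold change in both directions for all 20 and within a 1.5-fold change for 9. The median width of the interval on the log2 scale was 1.0 for these genes and 1.04 for all tested genes. The CPM values (counts scaled to the normalized library size) of the SP and NSP libraries overlapped for each of the 20, whereas 9.75% of all tested genes had groups that did not overlap.

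**Figure D1:**
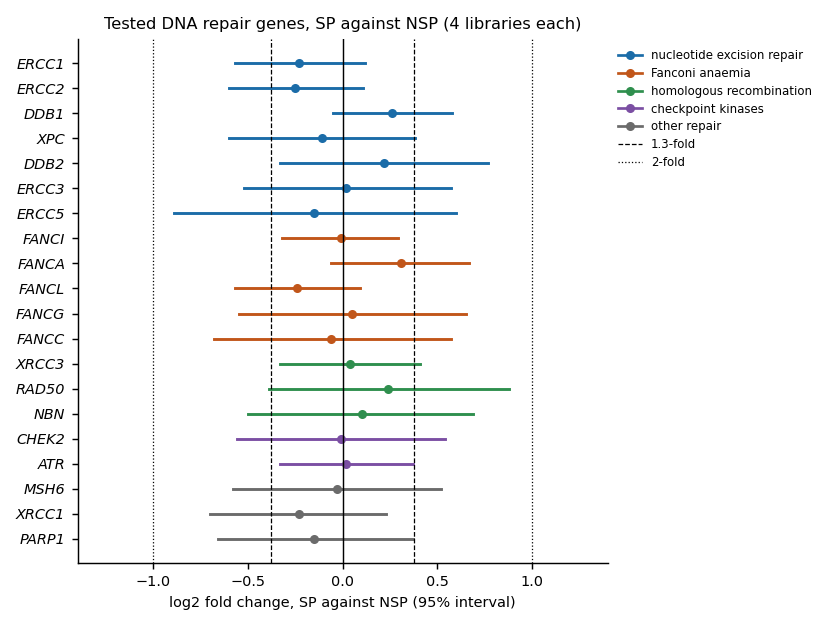
Log2 fold changes of the 20 tested DNA repair genes, SP against NSP cells of J82, with 95% intervals from edgeR, coloured by pathway. The dashed lines mark 1.3-fold and the dotted lines 2-fold changes. All 20 points lie between the dashed lines and all 20 intervals lie between the dotted lines.

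The same picture was obtained with the replicate number as a block. Same-numbered SP and NSP libraries deviated together from their group means, and the block raised the number of called genes to 5.89% higher and 7.0% lower of all tested. The number of repair genes called stayed at 0, with a smallest adjusted p of 0.224 (BH-adjusted edgeR F-test) for DDB1. The block moved no log2 fold change of the 20 by more than 0.05. Within all 4 same-numbered pairs DDB1 and FANCA were higher and ERCC1 was lower in SP cells. Of all tested genes 14.9% were higher and 15.1% lower in every pair, so 2 and 1 of the 20 genes are no more than the share of all genes.

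Summed over the 39 genes, the CPM was 1800, 1750, 1670 and 2000 in SP replicates 1 to 4 and 1790, 1800, 2110 and 2030 in NSP replicates 1 to 4. The sums overlapped between the groups, and single genes carried much of them. ERCC1 alone held 41.2% of the 24146 counts on the 39 genes. In nucleotide excision repair ERCC1 held 74.6% of the counts, in the checkpoint kinases ATR held 75.7%, and among the other repair genes MSH6 held 70.9%. XRCC3 held 59.5% of the counts in homologous recombination and FANCI 47.9% in the Fanconi anaemia pathway. A pathway sum is for this reason close to the value of its leading gene, and the genes are described one by one.

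**Figure D2:**
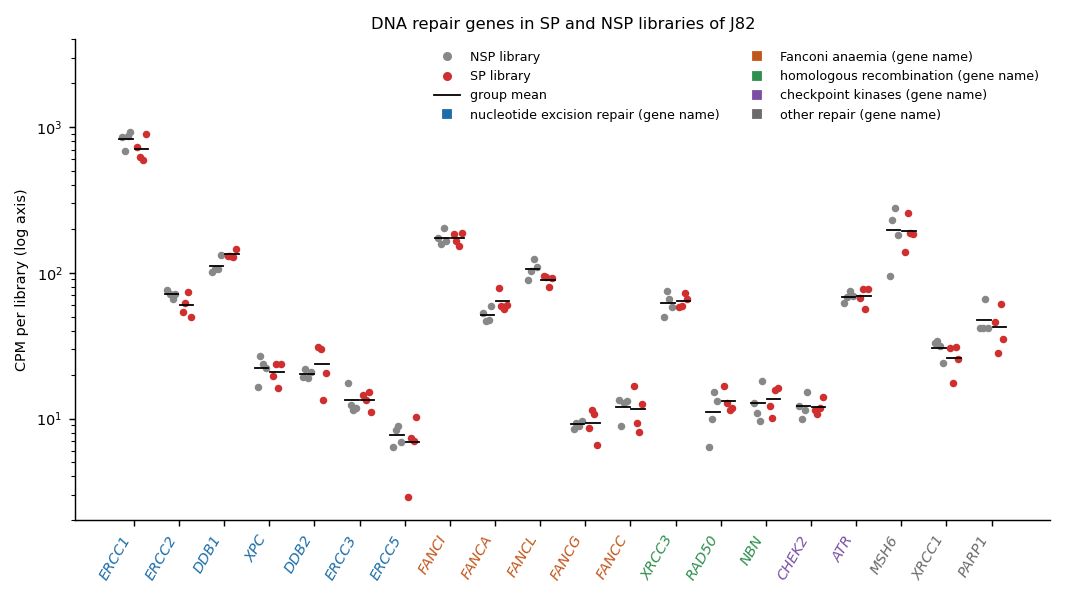
CPM of the 20 tested DNA repair genes in each of the 4 NSP (grey) and 4 SP (red) libraries of J82 on a log axis, with the group means as bars and gene names coloured by pathway. ERCC1 stands highest with 598 to 925 CPM, ERCC5 lowest with 2.88 to 10.3 CPM, and the grey and red points overlap for every gene.

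Nucleotide excision repair was represented by 7 tested genes of 11, with a median log2 fold change of -0.11. ERCC1, which with ERCC4 forms the nuclease that cuts on one side of the damage and also acts in crosslink unhooking, had the most counts per length of all 39 genes at 138 CPM per kb of exon. Its gene (ENSG00000012061.11) lies between 45910592 and 45982086 of chromosome 19 (GRCh37, minus strand). ERCC1 was at 733, 619, 598 and 894 CPM in SP replicates 1 to 4 and at 851, 689, 867 and 925 CPM in NSP replicates 1 to 4. SP replicates 2 and 3 lay below every NSP library, while SP replicate 4 was higher than 3 of the 4 NSP libraries. ERCC1 thus had a log2 fold change of -0.23 (SE 0.16) with a 95% interval of 0.671 to 1.08 as a fold change, and an adjusted p of 0.529 by the BH-adjusted edgeR F-test.

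Of the genes that find the damage, DDB1 and DDB2 had positive and XPC a negative log2 fold change (0.26, 0.22 and -0.11), and none passed the test. DDB1, the larger subunit of the complex that recognises bulky lesions in chromatin and an adaptor of a ubiquitin ligase, was at 130, 130, 129 and 146 CPM in SP replicates 1 to 4 and at 102, 106, 107 and 133 CPM in NSP replicates 1 to 4. NSP replicate 4 lay above 3 SP libraries and was the only overlap between the groups. The log2 fold change of DDB1 was 0.26 (SE 0.15), with the smallest unadjusted p of the 20 genes at 0.0948 and an adjusted p of 0.408 by the BH-adjusted edgeR F-test. The 8 libraries were also permuted exactly on the log2(CPM + 1) scale, without regard to replicate number. This gave a two-sided permutation p of 0.114 (n = 4 against 4, smallest possible p 0.0286). DDB1 is described in full because of its unadjusted p in the edgeR F-test, a choice made after its values were seen. Its partner subunit DDB2 stood at 23.8 ± 8.32 CPM in SP and 20.2 ± 1.27 CPM in NSP cells (mean ± SD, n = 4), and SP replicates 1 and 2, at 31.0 and 30.2 CPM, were above all NSP libraries while SP replicate 3, at 13.5 CPM, was below them. XPC, which senses the distorted helix throughout the genome, stood at 20.7 ± 3.52 CPM in SP and 22.2 ± 4.26 CPM in NSP cells.

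The genes that open and cut the DNA were likewise within the spread of the libraries. ERCC2 and ERCC3 encode the helicases of the transcription factor TFIIH that unwind the DNA around the lesion. ERCC2 was at 54.0, 61.7, 74.2 and 50.1 CPM in SP replicates 1 to 4 and 66.3 to 76.1 CPM in the NSP libraries, so that 3 SP libraries were below the NSP range and SP replicate 3 was inside it. The log2 fold change of ERCC2 was -0.25 (SE 0.17), the lowest of the 20 genes. ERCC3 had a log2 fold change of 0.02 (SE 0.26) with 11.0 to 15.2 CPM in SP and 11.5 to 17.6 CPM in NSP cells. ERCC5, the nuclease of the opposite side of the lesion, rested on 95 counts, the fewest of the tested genes, and had a log2 fold change of -0.15 (SE 0.35). The remaining 4 genes were below the filter, namely XPA with 77 counts, ERCC4 with 28, and ERCC8 and ERCC6, which act where a polymerase stalls on the damage, with 9 and 7 counts in the 8 libraries together.

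The Fanconi anaemia pathway had 5 tested genes of 9 and a median log2 fold change of -0.01. FANCI, which with FANCD2 forms the complex that is ubiquitinated at a crosslink, had the most counts per length of the pathway at 9.71 CPM per kb of exon. FANCI was at 185, 166, 152 and 187 CPM in SP replicates 1 to 4 and at 173, 157, 202 and 165 CPM in NSP replicates 1 to 4. The lowest of the 8 libraries was an SP and the highest an NSP library, and the log2 fold change of -0.01 (SE 0.15) had a 95% interval of 0.798 to 1.23 as a fold change. Among the 20 genes only DDB1 had as small a standard error. Its gene (ENSG00000140525.13) lies between 89787176 and 89860492 of chromosome 15 (GRCh37, plus strand).

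The core complex that attaches the ubiquitin is built from FANCA, FANCC, FANCE, FANCF, FANCG and FANCL, of which FANCL is the ligase. FANCA was at 79.3, 59.0, 56.3 and 60.4 CPM in SP replicates 1 to 4 and at 53.2, 46.9, 47.2 and 58.8 CPM in NSP replicates 1 to 4. In all, 3 of the SP libraries were above every NSP library, and SP replicate 3 was below NSP replicate 4 only. The log2 fold change of FANCA was 0.31 (SE 0.17), the highest of the 20 genes, with an adjusted p of 0.412 by the BH-adjusted edgeR F-test, and FANCA was described in full after its values were seen. The exact two-sided permutation test, again without regard to replicate number, gave p = 0.0571, the smallest among the 20 genes. FANCL pointed the other way, at 90.0 ± 6.98 CPM in SP and 106 ± 14.8 CPM in NSP cells, with a log2 fold change of -0.24 (SE 0.16). FANCC and FANCG had log2 fold changes of -0.06 (SE 0.29) and 0.05 (SE 0.28). FANCF with 63 counts, FANCD2 with 61, FANCE with 21 and FANCM, the helicase that anchors the complex at the fork, with 3 were not tested.

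Homologous recombination was the most thinly covered pathway. Only 3 of its 10 genes were tested, with a median log2 fold change of 0.1, while the fit without a filter gave a median of -0.19 over all 10. XRCC3, which acts in strand exchange, had the most counts per length at 8.42 CPM per kb of exon. XRCC3 was at 58.4, 59.0, 72.6 and 66.2 CPM in SP replicates 1 to 4 and at 50.0, 75.6, 65.7 and 58.1 CPM in NSP replicates 1 to 4. The SP values lay inside the NSP range, and the log2 fold change was 0.04 (SE 0.17). Exons of KLC1 on the other strand cross 76.7% of its exon length, the largest such share of the 39 genes. The gene (ENSG00000126215.9) lies between 104163946 and 104181841 of chromosome 14 (GRCh37, minus strand).

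RAD50 and NBN, of the complex that detects and trims broken ends, had log2 fold changes of 0.24 (SE 0.30) and 0.10 (SE 0.28). RAD50 was at 11.4 to 16.6 CPM in SP and 6.38 to 15.3 CPM in NSP cells. MRE11, the nuclease of the same complex, had 62 counts and was not tested. BRCA1, PALB2 and BRCA2, which act in turn after the ends are trimmed, had 71, 37 and 11 counts. BRCA1 was uneven among the SP libraries, with 10, 1, 15 and 6 counts in SP replicates 1 to 4 against 12, 11, 9 and 7 in NSP replicates 1 to 4. RAD51D, RAD51C and XRCC2 had 31, 23 and 5 counts.

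The checkpoint kinases were close to level between the groups. CHEK2, the kinase that ATM switches on after a double-strand break, had the most counts per kb of the 4 genes. CHEK2 (ENSG00000183765.16, GRCh37 chromosome 22, 29083731 to 29138410, minus strand) was at 11.5, 10.7, 11.9 and 14.0 CPM in SP replicates 1 to 4 and at 12.2, 9.88, 11.5 and 15.2 CPM in NSP replicates 1 to 4. All 4 SP values lay within the NSP range, and the log2 fold change was -0.01 (SE 0.26). ATR, the kinase that answers stalled replication forks, stood at 69.8 ± 10.1 CPM in SP and 68.7 ± 5.11 CPM in NSP cells, with a log2 fold change of 0.02 (SE 0.16) and a 95% interval of 0.798 to 1.29 as a fold change. Its target CHEK1 had 84 counts, the most among the genes that were not tested, and 19 of them were in SP replicate 3. ATM had 46 counts.

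Of the other repair genes, MSH6, PARP1 and XRCC1 were tested. MSH6, which recognises mismatches, was at 138, 259, 188 and 186 CPM in SP replicates 1 to 4 and at 95.8, 230, 280 and 183 CPM in NSP replicates 1 to 4. MSH6 varied more within a group than between the groups, with SDs of 49.9 and 78.4 CPM around means of 193 and 197 CPM, and replicate 1 was the lowest library in both. Its log2 fold change was -0.03 (SE 0.26). The gene (ENSG00000116062.10) lies between 47922669 and 48037202 of chromosome 2 (GRCh37, plus strand). PARP1, the sensor of single-strand breaks, was at 46.1, 28.1, 61.2 and 35.3 CPM in SP replicates 1 to 4 and at 41.5, 41.5, 66.3 and 41.5 CPM in NSP replicates 1 to 4, so that replicate 3 was highest in both groups. The log2 fold change of PARP1 was -0.15 (SE 0.24). XRCC1, the scaffold of single-strand break repair, had a log2 fold change of -0.23 (SE 0.22). POLH and REV3L, polymerases that copy past platinum adducts, had 38 and 31 counts.

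The 19 untested genes had 3 to 84 counts each in the 8 libraries together and at most 19 in any one library. Their counts summed to 67, 70, 112 and 73 in SP replicates 1 to 4 and to 94, 112, 93 and 87 in NSP replicates 1 to 4. Scaled to library size these sums were 46.9 to 60.6 CPM in SP and 50.0 to 60.2 CPM in NSP cells, which overlap. CHEK1 with 84 and XPA with 77 counts were just outside the filter, and ERCC5 with 95 just inside. Of the 20 tested genes 17 reached the filter's level of 6.36 CPM in all 8 libraries, 3 (ERCC5, FANCG and RAD50) in only some, and none through 1 group alone. With no filter beyond a single count, all 39 genes were fitted and 0 were called, where 2.59% of 26361 genes were. The smallest unadjusted p was then 0.0914, with an adjusted p of at least 0.611 for the 39 genes (BH-adjusted edgeR F-test). No difference was detected for these genes at such counts, and the intervals were wide, as in PALB2 with a log2 fold change of -1.04 and a 95% interval of -2.25 to 0.17.

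Many of the repair genes overlap a gene on the opposite strand. Exons of 27 of the 39 genes overlapped annotated exons of the opposite strand, and 15 of these genes were tested. Such an overlap was annotated for 54.2% of all tested genes. The median was 14.6 counts per kb of exon with and 11.8 without such an overlap, and the densest gene without one was DDB2 at 58.0 counts per kb. The 9 genes above DDB2 were ERCC1, MSH6, XRCC1, ERCC2, FANCI, XRCC3, DDB1, XPC and FANCA, from 1780 down to 59.9 counts per kb. In 18 of the 27 genes the densest partner held more counts per kb than the repair gene.

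**Figure D3:**
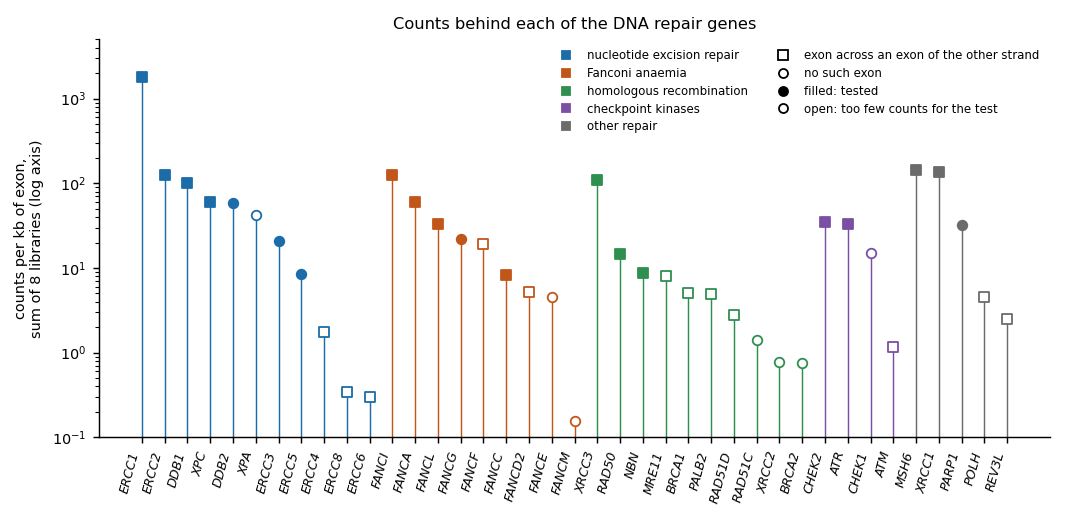
Counts per kb of exon, summed over the 8 libraries, for each of the 39 DNA repair genes on a log axis, ordered within each pathway. Squares mark genes that overlap an exon annotated on the opposite strand, circles those that do not, and filled symbols were tested. The 9 highest symbols, from ERCC1 at 1780 to FANCA at 59.9 counts per kb, are squares.

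Some repair genes with few counts lay across partners with more counts. FANCD2 had 61 counts while FANCD2OS on the other strand had 791, and RAD50 had 154 while TH2LCRR had 1002. ERCC4 had 28 counts against 933 for the lncRNA ENSG00000262732, PALB2 had 37 against 140 for ENSG00000261723, and REV3L had 31 against 328 for ENSG00000272356. The reverse order was seen for ERCC1, with 9951 counts against 4962 for POLR1G, and for further genes. Among them were MSH6 with 2528 against 1058 for FBXO11 and XRCC3 with 827 against 301 for KLC1. FANCL had 1272 counts against 650 for VRK2, but fewer per kb of exon (33.5 against 184). For 6 of the 19 untested repair genes the partner did have enough counts for the test. The 35 partners included 19 tested genes, of which 0 were called, while 2 with higher and 5 with lower values in SP cells had an unadjusted p under 0.05 (edgeR F-test). Of all tested genes 16.4% had such a p. With the replicate block FBXO11, across MSH6, and ENSG00000272356, across REV3L, were called higher, and FANCD2OS, POLG (across FANCI) and ENSG00000269583 (across XRCC1) were called lower. The block called 5.89% of all tested genes higher and 7.0% lower. With no filter ENSG00000272356 was also called higher (0.95) and FANCD2OS lower (-0.67), where 2.59% of all fitted genes were called in either direction. The 12 repair genes with no annotated exon on the other strand included 5 tested ones, ERCC3, ERCC5, DDB2, FANCG and PARP1, whose log2 fold changes were between -0.15 and 0.22.

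About the promoters, which the rule did not use, the lists of the 39 genes differed by pathway. RefSeq promoter windows of GRCh38.p14, from 250 bases before to 50 bases after an annotated start, were found for 37 of the 39 genes, FANCI and NBN being the others. They were searched on both strands for the core letters of E2F sites (TTCCCGC or the variant TTCGCGC or the variant TTGGCGC, the last of which can overlap a CCAAT box in reverse), since E2F factors are known to control genes of S phase. Over all repair genes the letters were in 24 of 52 windows (46.2%), or 19 of 37 genes. They were in 8 of 9 windows of the Fanconi genes (88.9%), or 7 of 8 genes with FANCM as the exception. The shares were 77.8% for the other repair genes (4 of 5 genes, with several windows for MSH6), 41.7% for homologous recombination, 26.7% for nucleotide excision repair and 0 of 7 windows for the checkpoint kinases. For comparison they were 23.1% to 40.0% for the wider repair lists described later, 66.7% for a list of S phase genes, 16.2% for windows of all tested genes and 11.0% for all windows. The wider Fanconi list had the letters in 6 of 21 windows (28.6%), so 88.9% describes the listed genes and not the whole pathway. Median GC content was 67.7% for the Fanconi genes and 73.7% for the other repair genes. It was 65.7% for windows of tested genes and 58.7% for all windows, and its part in these shares was not tested. The mitotic CHR letters TTTGAA were in 11.5% of the windows of the repair genes, in 15.2% of all windows and in 68.2% of windows of G2 and mitosis genes. Such matches are letters in a window, not measured sites. The stretches below are shown because they hold the letters in Fanconi genes that differed in how well they were counted, with BRCA1 beside them. Each is on the strand annotated for its gene, with the matched letters of either orientation in capitals.
FANCL: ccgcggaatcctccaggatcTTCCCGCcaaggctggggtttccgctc
FANCC: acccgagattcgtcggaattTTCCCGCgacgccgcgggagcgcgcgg
FANCG: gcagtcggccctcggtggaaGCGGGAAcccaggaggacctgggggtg
FANCF: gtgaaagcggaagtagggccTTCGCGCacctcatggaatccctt
FANCD2: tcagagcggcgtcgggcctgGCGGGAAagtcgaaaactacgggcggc
BRCA1: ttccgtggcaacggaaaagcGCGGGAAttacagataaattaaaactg

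In GRCh38.p14 these stretches are chr2:58241398-58241444 (FANCL), chr9:95317728-95317774 (FANCC), chr9:35080000-35080046 (FANCG), chr11:22625799-22625842 (FANCF) and chr17:43125385-43125431 (BRCA1), all on the minus strand, and chr3:10026415-10026461 (FANCD2) on the plus strand. The letters begin 99 bases before the annotated start in FANCL, 84 before in FANCG, 47 before in BRCA1, 45 before in FANCC and 2 before in FANCD2, and at the first transcribed base in FANCF. Genes with the same letters did not have the same count. FANCL had 1272 counts, FANCC 151 and FANCG 121, while FANCF with 63 and FANCD2 with 61 counts could not be tested. These genes differ in exon length. Per kb of exon they had 33.5, 8.18, 21.8, 19.1 and 5.15 counts in the same order, so that FANCF stood above FANCC.

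Among genes of the cell cycle, some were lower in SP cells. TOP2A, which untangles DNA in mitosis, had 18.0, 11.4, 30.3 and 11.8 CPM in SP replicates 1 to 4 and 35.1 to 56.0 CPM in the NSP libraries. UBE2C, a ubiquitin-conjugating enzyme of mitotic exit, had 34.6, 16.1, 48.7 and 19.1 CPM in SP replicates 1 to 4 and 62.2 to 75.5 CPM in the NSP libraries. TYMS, the thymidylate synthase of S phase, had 84.4 to 107 CPM in SP and 129 to 154 CPM in NSP cells. These 3 genes were called lower, with log2 fold changes of -1.25, -1.23 and -0.56 and adjusted p of 0.0238, 0.0187 and 0.0431 by the BH-adjusted edgeR F-test. By the same rule 2.03% of all tested genes were called lower. SP replicate 3 was the highest SP library for TOP2A and UBE2C, and without it their log2 fold changes were -1.666 and -1.598. The calls depended on single libraries, since that of TYMS was lost when any 1 of the 8 was left out (log2 fold changes of -0.627 to -0.507), that of TOP2A without NSP replicate 3 or 4 or SP replicate 2 or 4 (-1.187 to -1.091), and that of UBE2C without NSP replicate 2 or SP replicate 2 (-1.237 and -1.023). TYMS was also not called with upper-quartile scaling or with no filter, and none of these genes was called against a 1.3-fold null.

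The medians of the cell cycle lists lay below that of the repair genes. The median log2 fold change was -0.38 over the 18 tested genes of G2 and mitosis and -0.14 over the 18 tested genes of S phase, beside -0.01 for the 20 repair genes. With the replicate block 8 genes of G2 and mitosis (TOP2A, UBE2C, AURKB, PLK1, NUSAP1, MKI67, CENPF and TPX2) and 2 of S phase (TYMS and MCM2) were lower, and AURKB and PLK1 were also lower with no filter. Of all tested genes 7.0% were called lower with the block, and the S phase count is near that share. With no filter 2.59% of all fitted genes were called in either direction. Among 11 tested targets of p53, the transcription factor that answers DNA damage, 0 were called and the median was -0.3. With the block CDKN1A, GDF15, BBC3 and GADD45A were lower, with log2 fold changes of -1.16, -0.73, -0.77 and -0.67. GDF15 was also called lower with no filter (-0.79), and BBC3 with no filter (-0.816) and without NSP replicate 3 (-0.975). Whether the share of dividing cells moved any repair gene was not tested.

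The wider set of repair genes, 127 genes that act beside the 39 in the same and related pathways, gave 1 call. Of these genes 66 were tested, with a median log2 fold change of -0.07, an unadjusted p under 0.05 for 7 higher and 8 lower genes (22.7%, beside 16.4% of all tested genes), and 8 with groups that did not overlap (12.1%, beside 9.75%). MSH3, which recognises larger loops in mismatched DNA, was at 87.2, 141, 117 and 98.6 CPM in SP replicates 1 to 4 and at 62.8, 55.3, 83.5 and 58.8 CPM in NSP replicates 1 to 4. Every SP library was above every NSP library. The log2 fold change of MSH3 was 0.77 (SE 0.19), with an adjusted p of 0.0313 by the BH-adjusted edgeR F-test. The call was lost when NSP replicate 1, 2 or 4 or SP replicate 2 or 3 was left out, with log2 fold changes of 0.637 to 0.912 over the libraries left out in turn.

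Most pathways held wider genes with values in both directions. With the replicate block 6 were called higher (9.09%, beside 5.89% of all tested genes) and 5 lower (7.58%, beside 7.0%), so these shares lay near those of all genes. In nucleotide excision repair RAD23B, the partner of XPC, and GTF2H1, a subunit of TFIIH, were higher with log2 fold changes of 0.46 and 0.86, and CCNH, the cyclin of the TFIIH kinase, was lower at -0.62. In the Fanconi anaemia pathway FAAP20 was higher at 0.39 and the nuclease FAN1 lower at -0.64. In checkpoint signalling RAD1 and RNF168 were higher at 0.97 and 0.81 and the histone H2AX lower at -0.60. PRIMPOL, which restarts synthesis past damage, was lower at -0.76, and OGG1, the glycosylase for oxidised guanine, was lower at -0.44. Apart from MSH3 at 0.77, none of these was called by the edgeR fit without the block, where their adjusted p were 0.0926 to 0.324 (BH-adjusted edgeR F-test). RAD1 was also called higher with no filter (0.87), FAN1 and PRIMPOL lower with no filter, FAN1 without SP replicate 4 (-0.842), and OGG1 by DESeq2 (-0.464). In homologous recombination RAD52, with 4 to 14 counts in the SP and 0 to 3 in the NSP libraries, did not reach the filter, was called higher in the fit without a filter with a log2 fold change of 2.41, and was called higher by DESeq2. Other genes with the smallest p of their lists were called in none of these fits. They included RPA3 at 0.94 (SE 0.31) in nucleotide excision repair, TOP3A at 0.63 in homologous recombination, TIMELESS at -0.57 in checkpoint signalling, MAD2L2 at -0.12 in translesion synthesis, UNG at -0.49 in base excision repair, and DCLRE1C at -0.37 and XRCC6 at -0.11 in end joining.

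**Figure D4:**
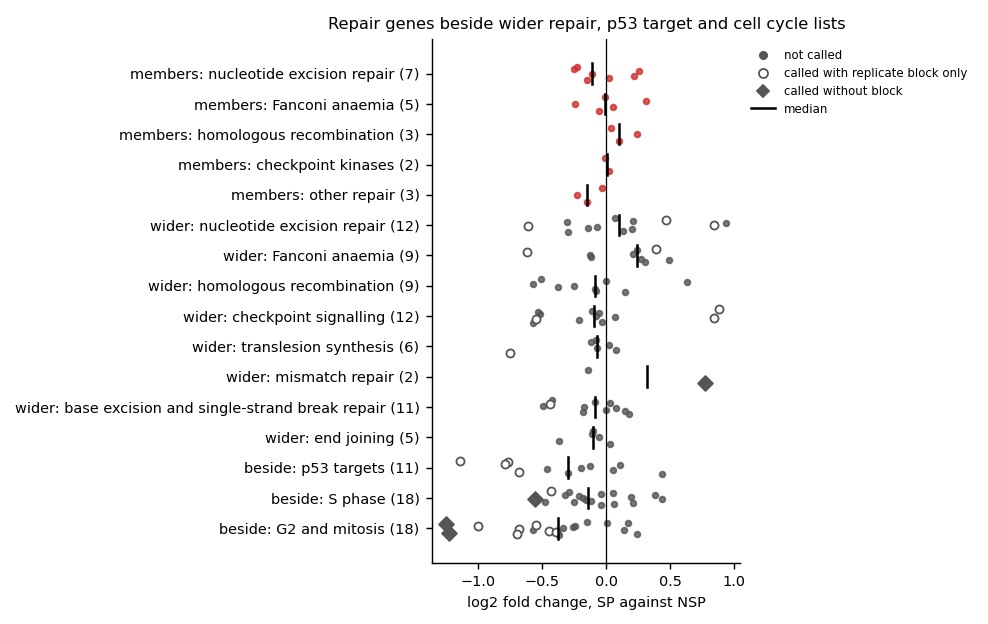
Log2 fold changes, SP against NSP cells, of the tested repair genes by pathway (red, the 20 of 39 described here), of 66 wider repair genes and of p53 target, S phase and G2 and mitosis genes (grey), with the median of each list as a bar. Of the edgeR fits on the filtered table, open circles were called with the replicate block only and diamonds also without it (MSH3 higher, TYMS, TOP2A and UBE2C lower), and the red points stay between -0.25 and 0.31.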

How the data were processed

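The authors sequenced single-end 50-bp mRNA libraries of SP and NSP cells, aligned the reads to hg19 with STAR and counted them on gencode version 19 genes with featureCounts, and the deposited values are raw counts per gene without normalization. The strand setting and the handling of multi-mapping reads are not given in the sources used here. Symbols, positions and exon lengths were joined by unversioned gene identifier from GENCODE version 44 mapped to GRCh37, the build of hg19. An annotation was found for 55538 genes (96.1%), and genes without one held 4.06% of the counts. UHRF1 and PECAM1 of the comparison lists were not matched.

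Differential expression used the quasi-likelihood F-test of edgeR 4.0.16 under R 4.3.3, with TMM scaling, the default filterByExpr thresholds (10 counts per gene, 15 in total) and no covariate, and Benjamini-Hochberg (BH) adjustment over all tested genes. The alternatives used DESeq2 1.42.0, limma 3.58.1 and other filters, scalings and sets of libraries. Standard errors are the size of the log2 fold change divided by the square root of F. The fits were tested on simulated counts, and tables were made in Python 3.11.15. Levels between genes are per kb of exon. Intervals at these counts cover the spread between libraries.

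All 39 genes are accounted for. Values in every library are given for the gene of each pathway with the most counts per kb, for called genes, and for other genes chosen after their values were seen. From each wider, p53 and cell cycle list the called genes and the 2 with the smallest p are named, and genes called only with the replicate block were added after their values were seen. Some items of these lists are not reported here. The members, the lists and the tests were chosen with earlier results of these data known.

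As a check of pairing, the correlation of deviations within replicate numbers 1 to 4 was 0.38, 0.203, 0.322 and 0.321. The replicate numbers were therefore treated as pairs in an alternative fit with a replicate block. The chi-square between replicates, divided by its degrees of freedom, was 4.87 to 11, which is more than sampling noise, and each library was counted as 1 sample.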

Additional observations from a re-analysis of the deposited data

Results flagged for a closer look

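In 80 groups of 4 libraries (40 named genes, SP and NSP), 10 held a library far from the other 3, with a gap to its nearest neighbour that is a large part of the group's whole range. Chance gives about 1 in 20 groups, and the cause was not tested. Among the repair genes described here the gap was 0.857 of the range for ERCC3 in NSP replicate 1 (17.6 CPM), 0.877 for FANCC in NSP replicate 2 (8.89 CPM), 0.839 for FANCL in SP replicate 3 (79.6 CPM) and 1.0 for PARP1 in NSP replicate 3 (66.3 CPM). DDB1 had such a library in both groups, and it carried the number 4 in each. The gap was 0.934 in SP replicate 4 (146 CPM) and 0.843 in NSP replicate 4 (133 CPM). In the other lists it was 0.863 for MAD2L2 in SP replicate 4 (51.5 CPM), 0.904 for MCM2 in SP replicate 2 (261 CPM), 0.908 for RAD23B in NSP replicate 3 (233 CPM) and 0.878 for XRCC6 in SP replicate 3 (67.7 CPM).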

How the results depend on the processing

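The number of the 39 repair genes called was 0 higher and 0 lower under every alternative run: edgeR with DESeq2's size factors or upper-quartile scaling, DESeq2, limma voom with sample weights, no filter, a filter of 10 counts per library, a 1.3-fold null, mitochondrial genes left out, genes with an exon across the other strand left out, the replicate block, and each library left out in turn. For the wider repair genes, 1 higher and 0 lower became 2 and 1 with DESeq2, 3 and 2 with no filter and 6 and 5 with the replicate block. The count of higher genes was 0 against a 1.3-fold null and 0 with the other-strand genes left out, where MSH3 itself is removed, and leaving out single libraries gave 0 to 1 higher and 0 to 1 lower. The median log2 fold change of nucleotide excision repair ranged from -0.220 (without NSP replicate 1) to 0.032 (without SP replicate 1), and that of homologous recombination was -0.231 with DESeq2 and -0.194 with no filter, both over 10 genes in place of 3. Of 691 values for 40 single genes under the alternatives 34 changed sign, leaving aside 3 that round to 0.00 (under 0.005 in size), all in 11 of the 39 repair genes, whose log2 fold change was at most 0.15 in size. With the other-strand genes left out ERCC3 was -0.039 and FANCG -0.010. With voom FANCC was 0.020, FANCI 0.030, XRCC3 -0.024 and CHEK2 0.023. CHEK2 was 0.007 with upper-quartile scaling, and MSH6 was 0.023 with the replicate block. Leaving out single libraries gave ranges of -0.043 to 0.185 for ERCC3, -0.386 to 0.089 for ERCC5, -0.270 to 0.098 for FANCC, -0.047 to 0.173 for FANCG, -0.066 to 0.062 for FANCI, -0.009 to 0.283 for NBN, -0.061 to 0.145 for XRCC3, -0.043 to 0.114 for ATR, -0.109 to 0.097 for CHEK2, -0.382 to 0.052 for PARP1 and -0.265 to 0.186 for MSH6. A call was lost in 25 of the 691 values (MSH3, TOP2A, UBE2C and TYMS) and gained in 15, all in genes that were also called with the replicate block. The cause of these shifts was not tested. The number of counts assigned to genes limits what could be seen for the 19 untested repair genes, with at most 19 counts in a library. At similar counts RAD52 was called with a log2 fold change of 2.41 with no filter, and why the 19 genes have few counts was not tested.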
